A study of Mus musculus with 12 samples.

Results

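The enzymes that cut the extracellular matrix around brain vessels, and the proteins that hold them in check, were followed through RNA-seq of primary mouse brain endothelial cells (BECs) with and without the neuropeptide cortistatin. All genes with the symbols of matrix metalloproteinases (MMPs), ADAMTS proteases, ADAMTS-like proteins or tissue inhibitors of metalloproteinases (TIMPs) were taken, whatever their level. There were 50 of them among the 32419 genes listed, namely 22 MMP, 19 ADAMTS, 5 ADAMTS-like and 4 TIMP genes. Mmp20 was listed only under OGD-R, and the other 49 were listed in both environments. Here OGD-R stands for oxygen–glucose deprivation followed by reoxygenation, and NX/NG for the normoxic, normoglycemic control.

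The cells came from brains of mice, C57BL/6 by the labels and C57BL/6J by the study's methods, that either lacked the cortistatin gene (Cort-/-, labelled KO) or carried it (Cort+/+, labelled WT). NX/NG cultures (labelled NM) were kept for 24 h at 21% O2 and 5.5 mM glucose, and OGD-R cultures (labelled OGD) for 4 h at 1% O2 without glucose and serum and then for 20 h under control conditions. The labels also give an ischemic stroke model (MCAO) as the disease state of all samples, whereas the study's methods describe deprivation in culture of cells from 8-week-old mice. Each replicate pooled cells from 3 mice. Of 12 samples, 10 had a column, 3 Cort+/+ and 2 Cort-/- libraries in each environment, so every comparison of genotypes set 2 libraries against 3 (NX/NG replicates 1 and 2, OGD-R replicates 1 and 3 for Cort-/- BECs). The other 2 samples were not analysed here.

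The libraries held 12386048 to 12390428 reads on genes, of which 0.235% to 0.378% lay on the 50 genes. Cort had 0 reads in the 4 Cort-/- libraries and 0 to 2 reads in the 6 Cort+/+ libraries, too few to check the labels by. In 2 libraries, Cort-/- OGD-R replicate 3 and Cort+/+ OGD-R replicate 1, the ribosomal RNA gene Rn18s-rs5 took 0.0951% and 0.0775% of the reads, against 7.64% to 15.8% in the other 8. Some results under OGD-R are therefore also given without these 2 libraries, and all others under OGD-R include them. All 6 endothelial markers (Cldn5, Pecam1, Cdh5, Tek, Kdr, Erg) were detected in every library, with a summed level of 806 to 1245 RPKM (reads normalised by the authors to gene length and library depth). The 4 smooth muscle markers, led by Acta2 and Tagln, summed to 995 to 1777 RPKM, the 7 fibroblast markers to 64.8 to 284 RPKM, and the 6 pericyte markers to 7.59 to 22.9 RPKM. Krt8, an epithelial keratin, stood at 18.7 RPKM in Cort+/+ NX/NG replicate 2, 11.9 RPKM in Cort-/- OGD-R replicate 1 and 2.57 RPKM in Cort-/- NX/NG replicate 2, and at 0.0749 to 0.443 RPKM in the other 7 libraries.

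MMPs are zinc-dependent proteases that are made as inactive precursors and cut collagens, laminins, fibronectin and cell surface proteins once their propeptide is removed. ADAMTS proteases are secreted relatives that process procollagens and cut large proteoglycans such as versican, and ADAMTS-like proteins share their ancillary domains but have no protease domain. TIMPs bind the active site of these enzymes and block it. In the brain, MMPs are known for cutting the basement membrane and tight junctions of vessels after ischemia, which opens the blood–brain barrier.

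Of the MMP genes, 9 lie side by side on chromosome 9 (Mmp1a, Mmp1b, Mmp3, Mmp8, Mmp10, Mmp12, Mmp13, Mmp20, Mmp27). These include the stromelysins Mmp3 and Mmp10 and the collagenase Mmp13, which differed most between environments in Cort+/+ BECs below. The 250 bases before the annotated start (RefSeq, GRCm38.p6) were searched for TGACTCA and its reverse complement TGAGTCA, the site that AP-1 factors such as Fos and Jun dimers bind. A match was found in 6 of the 9 (Mmp1a, Mmp1b, Mmp3, Mmp10, Mmp12 and, closest to the start, Mmp13) and in 0 of the 26 other members that had a window, against 4.46% of all 32851 windows. A window was found for 35 of the 50 genes. The last 150 bases before the start are shown for Mmp3 (chr9:7445672-7445821), Mmp10 (chr9:7502192-7502341) and Mmp13 (chr9:7272364-7272513), whose means were higher after OGD-R, for Mmp1a (chr9:7463991-7464140), which carries the same letters, and for Timp1 (chrX:20870016-20870165), the inhibitor that was higher after OGD-R as well. All are on the plus strand, and capitals mark the match.
Mmp3: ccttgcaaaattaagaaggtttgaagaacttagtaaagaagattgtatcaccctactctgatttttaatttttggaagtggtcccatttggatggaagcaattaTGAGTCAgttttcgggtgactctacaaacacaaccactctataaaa
Mmp10: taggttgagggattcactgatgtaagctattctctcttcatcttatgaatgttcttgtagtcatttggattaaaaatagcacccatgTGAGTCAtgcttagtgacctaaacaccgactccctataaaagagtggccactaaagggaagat
Mmp13: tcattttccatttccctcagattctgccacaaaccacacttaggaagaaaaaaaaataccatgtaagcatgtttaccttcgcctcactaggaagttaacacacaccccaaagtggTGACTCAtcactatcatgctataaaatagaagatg
Mmp1a: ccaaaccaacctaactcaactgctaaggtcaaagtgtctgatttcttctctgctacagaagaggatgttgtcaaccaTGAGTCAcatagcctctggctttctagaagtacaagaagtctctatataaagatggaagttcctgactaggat
Timp1: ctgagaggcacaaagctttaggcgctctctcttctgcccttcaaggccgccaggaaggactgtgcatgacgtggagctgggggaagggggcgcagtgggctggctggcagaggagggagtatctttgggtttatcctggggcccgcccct
The match begins at base -46 in Mmp3, -63 in Mmp10, -35 in Mmp13 and -73 in Mmp1a, counted back from the start. The letters are not in the Timp1 window. A match is a description of the sequence only.

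The inhibitors were the most abundant members. Timp2, which blocks MMPs and also helps Mmp14 to activate Mmp2, had the highest level of all, with a mean of 422 RPKM over the 10 libraries. Timp1, a secreted inhibitor of most MMPs, followed with 150 RPKM, and Timp3, which is held in the matrix and also blocks ADAMTS proteases, reached 36.2 RPKM. Timp4 was near the limit of detection, with a mean of 0.0836 RPKM and at most 9 reads in a library. The 4 inhibitors made up 71.9% to 78.1% of the RPKM summed over all members of a library.

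Among the proteases, 3 genes had a mean of at least 10 RPKM. These were the gelatinase Mmp2 at 65.8 RPKM, its membrane-bound activator Mmp14 at 34.8 RPKM, and the versican-cutting protease Adamts1 at 12.2 RPKM. Mmp2 and Mmp14 together took 63.3% to 77.0% of the RPKM summed over all MMPs. At 5 to 10 RPKM stood Mmp3, Mmp11, Mmp19, Adamts4, Adamts7 and Adamtsl4, and 17 members had means of 1 to 5 RPKM, so that 29 of the 50 reached 1 RPKM. The 17 were Mmp13, Mmp15, Mmp16, Mmp23, Mmp24, Mmp25, Mmp28, Adamts2, Adamts5, Adamts6, Adamts9, Adamts10, Adamts12, Adamts14, Adamtsl1, Adamtsl3 and Adamtsl5. Mmp1a, Mmp1b, Mmp10, Mmp17, Mmp27 and Adamts15 lay between 0.1 and 1 RPKM, and the remaining 15 were lower still. Of these, 8 never exceeded 3 reads in any library (Mmp20, Mmp21, Adamts13, Adamts16, Adamts17, Adamts18, Adamts19 and Adamts20), and Mmp8, Mmp9, Mmp12, Adamts3, Adamts8, Adamtsl2 and Timp4 completed the group.

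Mmp9, the gelatinase most often measured in stroke, was among these low genes. It had 0.0458 and 0.378 RPKM in Cort-/- BECs under NX/NG, 0.0230, 0.0430 and 0.171 RPKM in Cort+/+ BECs under NX/NG, 0.0241 and 0.0828 RPKM in Cort-/- BECs after OGD-R, and 0.0617, 0.0763 and 0.0236 RPKM in Cort+/+ BECs after OGD-R. The groups overlapped, no library had more than 17 reads, and no difference was detectable at this depth. Mmp8, a collagenase stored by neutrophils, had at most 5 reads in a library. Of the 4 neutrophil markers, S100a8 was the only one listed and did not exceed 0.369 RPKM.

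**Figure D1:**
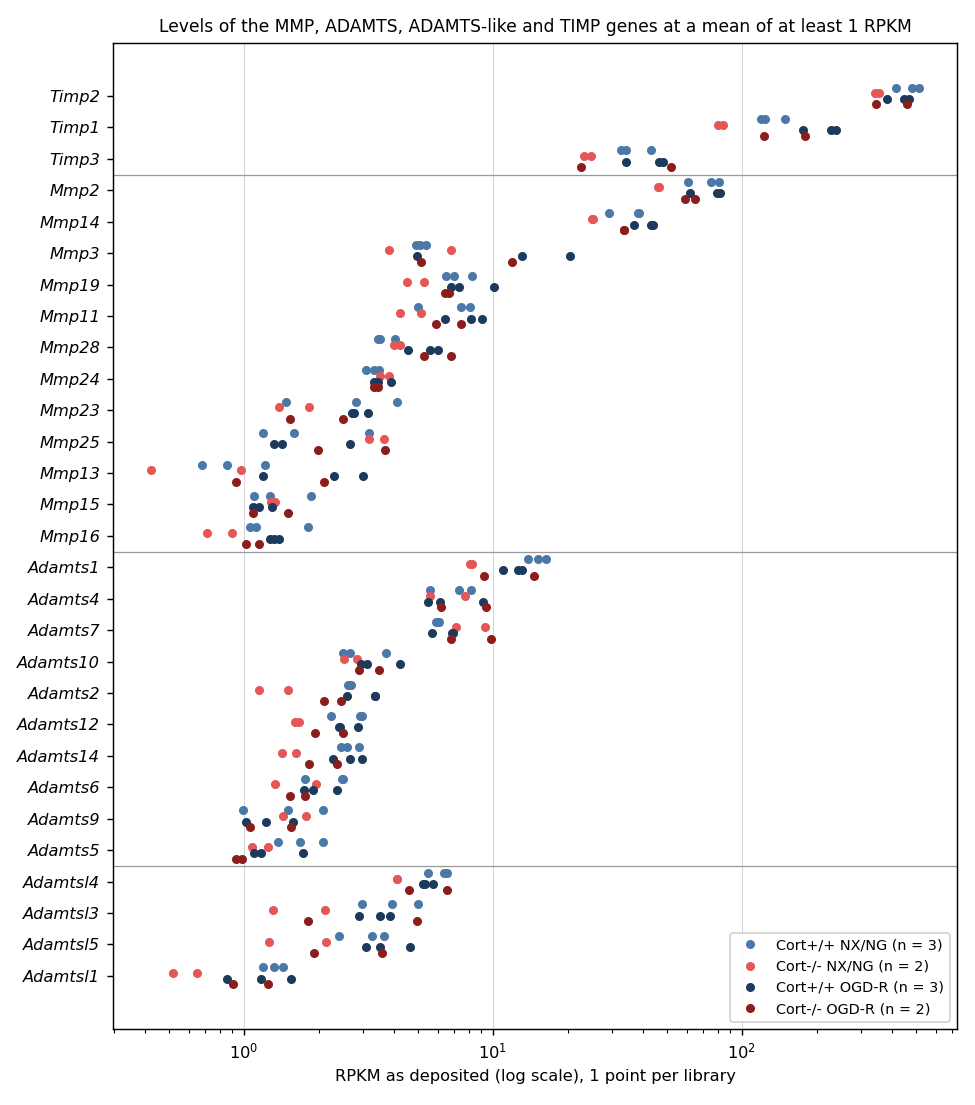
Deposited RPKM (log scale) of the 29 members with a mean of at least 1 RPKM, 1 point per library, coloured by group and ordered by family and mean level. Timp2, Timp1 and Mmp2 lie farthest right, and the lighter red points of Cort-/- BECs under NX/NG are the lowest of their row for many genes.

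The first comparison asks how BECs without cortistatin differ from Cort+/+ BECs at rest. Under NX/NG, most members with a measurable level were lower in Cort-/- BECs, and inhibitors and proteases were lower together, but the limma test across all genes called none of them. Values were fitted on log2(RPKM + 0.1) and a gene was called at a false discovery rate (FDR) of at most 0.05, adjusted over all genes tested. At that rule 0 of 49 members and 0.0% of all genes were called. At an unadjusted p under 0.05, 14 members were lower and 1 was higher, against 4.82% and 3.56% of all genes. Of the 28 members with a mean of at least 1 RPKM in these 5 libraries, 23 had a negative log2 fold change, against 47.8% of all genes at that level, and 5 a positive one, against 52.2%. Their median was -0.53, against 0.0088 for all genes. In 16 of the 28 both Cort-/- libraries lay below all 3 Cort+/+ libraries (16.6% of all genes), and in 3 both lay above (16.4%).

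On the reads recovered from the RPKM values, limma-voom, which weights each value by its expected precision, called 124 genes (0.414%), and 6 members were among them. These were Adamts1 (limma-voom FDR 0.00518), Adamts2 (0.0152), Adamtsl1 (0.0183), Timp1 (0.0252), Mmp2 (0.0396) and Timp2 (0.0467), all lower in Cort-/- BECs. So the same differences are past the threshold or short of it depending on the model, and neither version rests on more than 2 Cort-/- libraries. With Cort-/- replicate 1 left out, which leaves a lone library that is assumed to vary like the others, limma called 543 genes, Adamts2 (FDR 0.0496) and Adamts7 (FDR 0.0463) among them. With replicate 2 left out it called 683 genes and 0 members.

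Some markers of other cell types moved with this difference. The summed level of the 7 fibroblast markers was 64.8 and 95.9 RPKM in Cort-/- BECs under NX/NG against 159 to 227 RPKM in Cort+/+ BECs, and all 3 markers with a mean of at least 1 RPKM (Col1a1, Col1a2, Fbln1) were lower without overlap. Dcn reached 0.539 to 1.93 RPKM over the 10 libraries, Pdgfra 0.314 to 0.706 RPKM and Lum at most 0.149 RPKM, and Dpt was at 0 in 8 libraries. Under NX/NG, Pdgfra went the other way without overlap, at 0.485 and 0.706 RPKM in Cort-/- against 0.366, 0.319 and 0.320 RPKM in Cort+/+ BECs. The 6 pericyte markers summed to 7.59 and 10.2 RPKM against 17.9 to 21.4 RPKM, with Pdgfrb, Cspg4 and Rgs5 all lower without overlap, while Kcnj8 and Abcc9 did not exceed 0.0353 and 0.0204 RPKM. The 6 macrophage and microglia markers summed to 6.57 and 8.03 RPKM against 12.9 to 13.9 RPKM, with Ptprc at most 0.0320 RPKM in any library. Tmem119 set this lower sum, at 2.728 and 4.011 against 9.795, 11.05 and 11.09 RPKM. Of the 3 markers with a mean of at least 1 RPKM, 2 were higher, and the median log2 fold change was 0.23. Cd68 was higher without overlap (1.997 and 2.191 against 1.103, 1.574 and 1.173 RPKM). The 4 smooth muscle markers overlapped, at 1299 and 1556 against 1449 to 1777 RPKM. The 6 endothelial markers were at 1049 and 1175 RPKM against 806 to 1054 RPKM, and all 6 had positive log2 fold changes. Fewer cells of a type and less RNA per cell cannot be told apart in these bulk samples, and the part of these markers in the result was not tested.

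Each of the 3 measurable inhibitors was lower in Cort-/- BECs under NX/NG. Timp1 had 84.2 and 80.3 RPKM in Cort-/- and 149, 124 and 120 RPKM in Cort+/+ libraries, a log2 fold change of -0.66 ± 0.11 (SE; limma FDR 0.241), or 1.58-fold lower. Timp2 had 357 and 342 RPKM against 515, 483 and 415 RPKM (-0.42 ± 0.12; FDR 0.464). Timp3 had 23.2 and 24.8 RPKM against 32.6, 43.2 and 34.2 RPKM (-0.60 ± 0.13; FDR 0.351). The groups did not overlap for any of the 3. Timp3 shares 21.3% of its length with exons of Syn3 on the other strand.

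The gelatinase Mmp2 and the enzyme that activates it were lower along with their inhibitors. Mmp2 had 46.6 and 45.9 RPKM in Cort-/- and 75.4, 81.2 and 61.0 RPKM in Cort+/+ libraries (log2 fold change -0.64 ± 0.13; limma FDR 0.310), and Mmp14 had 25.0 and 25.3 RPKM against 38.2, 38.7 and 29.2 RPKM (-0.48 ± 0.14; FDR 0.468). Both Cort-/- libraries lay below all Cort+/+ libraries for both genes. Because TIMPs and MMPs were lower together, the ratio of their summed RPKM was 4.21 and 4.59 in Cort-/- BECs and 4.18 to 4.61 in Cort+/+ BECs, so the groups overlapped although each sum was lower (TIMPs, 448 to 464 against 569 to 697 RPKM; MMPs, 101 to 106 against 123 to 156 RPKM).

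Mmp19, a secreted protease of basement membrane components, showed the same pattern with 4.54 and 5.30 RPKM against 8.26, 6.98 and 6.45 RPKM (-0.54 ± 0.13; limma FDR 0.391), although 22.3% of its length lies in exons of Tmem198b on the other strand. Mmp11 (stromelysin 3) had 4.23 and 5.15 RPKM against 8.10, 7.42 and 5.02 RPKM, and there the groups overlapped. Mmp3, the stromelysin, did not follow: it had 3.82 and 6.77 RPKM in Cort-/- and 5.12, 5.37 and 4.91 RPKM in Cort+/+ libraries, a log2 fold change of -0.01 ± 0.24 that turned positive when libraries were scaled by total reads. Mmp28, Mmp24 and Mmp25 had higher means in Cort-/- BECs, and of these Mmp24 and Mmp25 did not overlap between genotypes (3.53 and 3.81 against 3.08 to 3.48 RPKM, and 3.66 and 3.18 against 1.19 to 3.17 RPKM). For Mmp25, which is bound to the membrane by a lipid anchor, the nearest libraries of the genotypes almost coincided.

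Adamts1 was the member with the smallest p-value. It had 8.25 and 8.10 RPKM in Cort-/- and 16.3, 15.2 and 13.9 RPKM in Cort+/+ libraries, a log2 fold change of -0.88 ± 0.082 (limma FDR 0.0828), or 1.84-fold lower, and it stayed between -0.94 and -0.82 when any 1 library was left out. Its relatives Adamts4 and Adamts9, which also cut proteoglycans, overlapped between genotypes (Adamts4, 5.61 and 7.74 against 7.34, 5.57 and 8.18 RPKM). Adamts5 had 1.08 and 1.25 RPKM against 2.07, 1.69 and 1.37 RPKM, with a limma FDR of 0.644.

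The procollagen N-proteinases Adamts2 and Adamts14, which trim fibrillar collagens so that they can assemble, were both lower. Adamts2 had 1.50 and 1.15 RPKM in Cort-/- and 2.68, 2.62 and 2.67 RPKM in Cort+/+ libraries (log2 fold change -0.96 ± 0.15; limma FDR 0.225), and Adamts14 had 1.62 and 1.42 RPKM against 2.89, 2.61 and 2.45 RPKM (-0.76 ± 0.13; FDR 0.252). The collagens they process were lower too, as given below. The pair that cuts cartilage oligomeric matrix protein went in opposite directions. Adamts12 had 1.66 and 1.60 RPKM against 2.98, 2.93 and 2.24 RPKM (-0.69 ± 0.16; FDR 0.373), whereas Adamts7 had 7.10 and 9.33 RPKM against 6.06, 5.91 and 6.03 RPKM (0.43 ± 0.12; FDR 0.468) and was the only member higher in Cort-/- BECs at an unadjusted p under 0.05.

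All 4 measurable ADAMTS-like genes were lower in Cort-/- BECs under NX/NG, with a median log2 fold change of -0.96. Adamtsl3 had 2.11 and 1.31 RPKM against 3.93, 5.01 and 2.99 RPKM (-1.18 ± 0.29; limma FDR 0.401). Adamtsl1 had 0.647 and 0.518 RPKM against 1.43, 1.20 and 1.32 RPKM (-1.06 ± 0.20; FDR 0.284). Adamtsl4, which binds fibrillin microfibrils, had 4.13 and 4.10 RPKM against 6.53, 6.38 and 5.49 RPKM (-0.56 ± 0.098; FDR 0.252), and Adamtsl5 had 2.14 and 1.27 RPKM against 3.66, 3.27 and 2.41 RPKM (-0.86 ± 0.29; FDR 0.531). None of the 4 overlapped between genotypes.

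**Figure D2:**
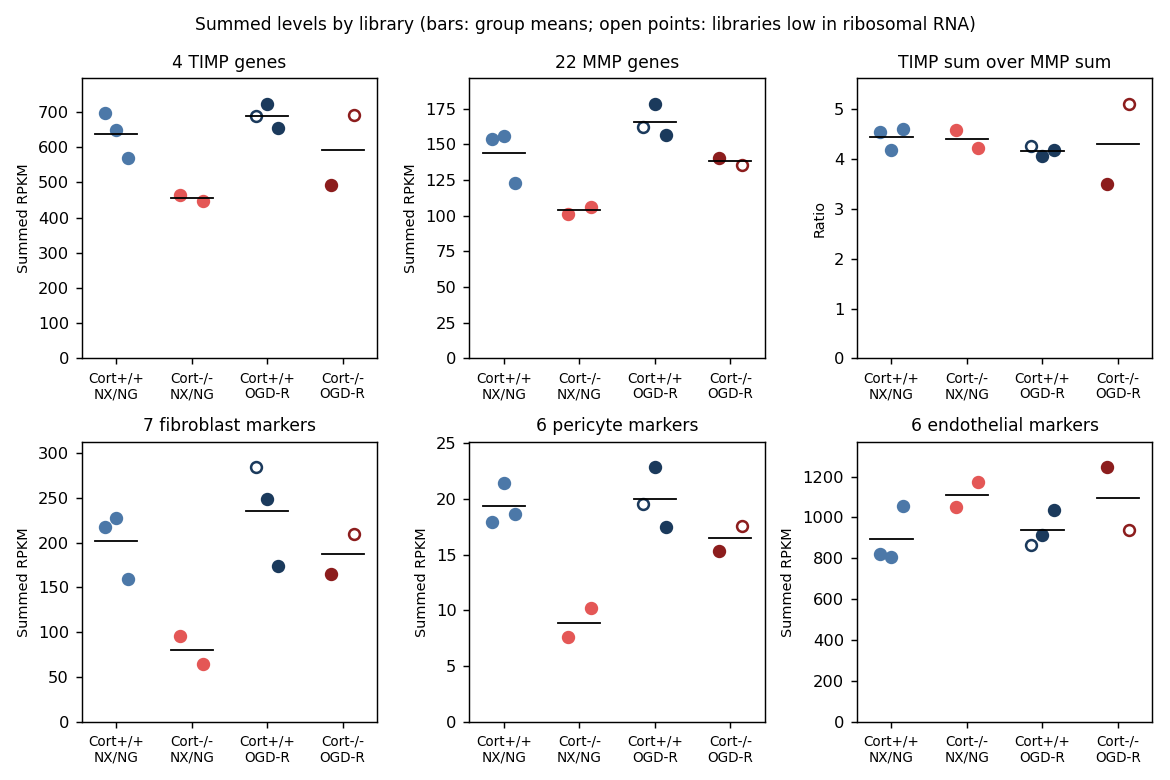
RPKM summed per library over the TIMP, MMP, fibroblast, pericyte and endothelial marker genes, and the ratio of the TIMP to the MMP sum, by group; bars are group means, and open points are the 2 libraries low in ribosomal RNA. Cort-/- BECs under NX/NG have the lowest sums of TIMPs, MMPs, fibroblast and pericyte markers, and their TIMP to MMP ratios (4.21 and 4.59) lie within the range of the other libraries.

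The same comparison after OGD-R asks whether the genotypes differ once the cells have been deprived of oxygen and glucose. Differences were smaller: 0 of 50 members and 0.0% of all genes were called, and at an unadjusted p under 0.05 only Mmp14 was lower and none was higher (1.71% and 1.72% of all genes). Of the 30 members with a mean of at least 1 RPKM, 23 again had negative log2 fold changes (52.4% of all genes at that level) and 7 positive ones (47.6%), with a median of -0.24 against -0.0090. In 6 of the 30 (Mmp14, Mmp16, Mmp19, Mmp23, Adamts2, Adamts5) both Cort-/- libraries lay below all Cort+/+ libraries (8.23%), and in 0 above (7.87%). limma-voom called 5 genes (0.0168%) and 0 members. Leaving out Cort-/- replicate 1 or 3 raised the calls to 710 and 626 genes, with 0 members in each.

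Mmp14 had 33.5 and 33.6 RPKM in Cort-/- and 44.1, 43.2 and 36.8 RPKM in Cort+/+ libraries after OGD-R (log2 fold change -0.30 ± 0.11; limma FDR 0.978). Its target Mmp2 had 59.3 and 65.1 RPKM against 79.5, 81.5 and 62.2 RPKM (-0.25 ± 0.15; FDR 0.978), and the groups overlapped. Adamts1, the leading gene under NX/NG, had 9.21 and 14.7 RPKM against 11.0, 13.1 and 12.6 RPKM (-0.07 ± 0.21), so the Cort-/- libraries enclosed the others.

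The 2 Cort-/- libraries after OGD-R often stood far apart, and the library low in ribosomal RNA was the higher one for the inhibitors. Timp3 had 22.6 RPKM in Cort-/- replicate 1 and 51.9 RPKM in replicate 3, against 46.7, 48.3 and 34.4 RPKM in Cort+/+ libraries. Timp1 had 123 and 179 RPKM against 176, 228 and 239 RPKM (log2 fold change -0.52 ± 0.23; limma FDR 0.978). Timp2 had 347 and 461 RPKM against 468, 447 and 381 RPKM. With both libraries low in ribosomal RNA left out, 1 Cort-/- library was compared with 2 Cort+/+ libraries. The log2 fold change was then -0.93 ± 0.083 for Timp1 (limma FDR 0.225), -0.84 ± 0.32 for Timp3 (FDR 0.617) and -0.48 ± 0.059 for Adamts1 (FDR 0.299), which moved the values by more than 1.5 times. In that fit 5 of 50 members were lower at an unadjusted p under 0.05 and none was higher, against 4.27% and 6.82% of all genes.

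The share of ribosomal RNA cut across genotype after OGD-R. Both libraries low in it lay above the other 3 in Timp2, Adamts10, Adamtsl1, Adamtsl3, Adamtsl4 and Adamtsl5, which is 6 of 30 members against 14.2% of all genes, and below them in Mmp3, Mmp10, Mmp13, Mmp15 and Mmp28, which is 5 of 30 against 16.2%. Each genotype held 1 such library.

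**Figure D3:**
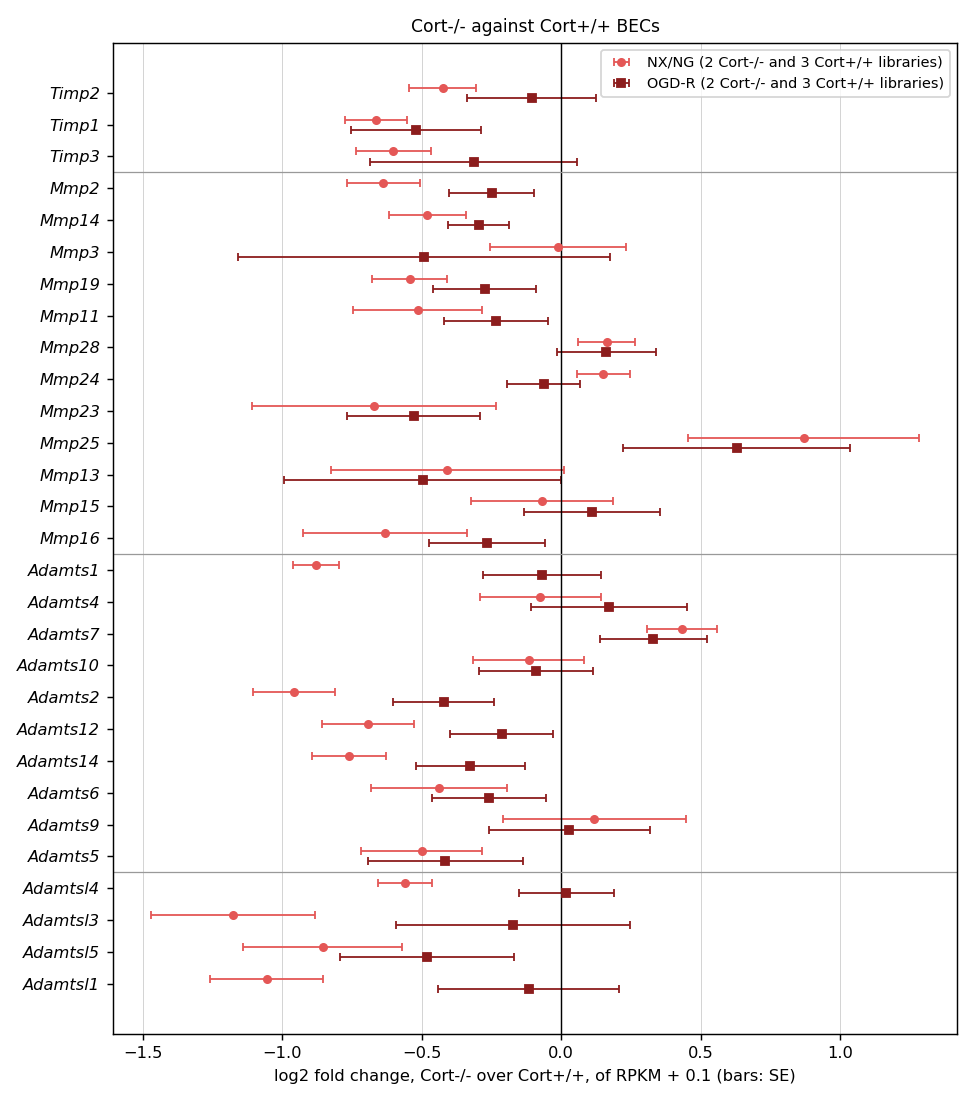
Log2 fold change of Cort-/- over Cort+/+ BECs (x axis, RPKM + 0.1, bars are SE) for members with a mean of at least 1 RPKM, under NX/NG (circles) and after OGD-R (squares). Most circles lie left of 0, with Adamtsl3 at -1.18 the lowest and Mmp25 at 0.87 the highest, and no value passed the FDR of 0.05.

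The next comparison follows each genotype from NX/NG to OGD-R. Since the tables of the 2 environments were scaled separately, the levels here are RPKM computed anew from the recovered reads of all 10 libraries scaled together. In Cort+/+ BECs, stromelysins, a collagenase and Timp1 had higher means after OGD-R, and Adamts1 and Adamtsl4 had lower means. limma called 0 of 49 members, against 9 of 27075 genes (0.0332%), and limma-voom called 0 members and 1 gene (0.00369%). At an unadjusted p under 0.05, 5 members were higher (3.01% of all genes) and 2 were lower (2.47%). Of 29 members with a mean of at least 1 RPKM, 14 had positive (51.6% of all genes) and 15 negative log2 fold changes (48.4%), with a median of -0.03 against 0.0061 for all genes. Mmp28 and Timp1 lay above the NX/NG libraries without overlap (7.68% of all genes), and Adamts1 and Adamtsl4 below them (5.18%).

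The stromelysins Mmp3 and Mmp10, which degrade proteoglycans and can activate other MMP precursors, had the highest levels in the OGD-R libraries with an ordinary share of ribosomal RNA. In Cort+/+ BECs Mmp3 had 5.24, 5.49 and 5.04 RPKM under NX/NG, and after OGD-R 12.8 and 19.97 RPKM in replicates 2 and 3 but 4.85 RPKM in replicate 1, the library low in ribosomal RNA. The log2 fold change was 1.02 ± 0.47 over all libraries (limma FDR 0.893) and 1.59 ± 0.19 without replicate 1 (limma FDR 0.218). In Cort-/- BECs Mmp3 had 3.93 and 6.97 RPKM under NX/NG, 11.6 RPKM in OGD-R replicate 1 and 4.99 RPKM in replicate 3, the other library low in ribosomal RNA. There the log2 fold change was 0.53 ± 0.52 (FDR 0.922) and, without replicate 3, 1.14 ± 0.52 (limma FDR 0.761). In both genotypes the library low in ribosomal RNA lay within or just below the NX/NG values, and the others above them.

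Mmp10 followed the same libraries at a lower level. It had 0.534, 0.0904 and 0.258 RPKM under NX/NG and 0.742, 1.83 and 1.70 RPKM after OGD-R in Cort+/+ BECs, a log2 fold change of 2.03 ± 0.54 (limma FDR 0.862), with no overlap. In Cort-/- BECs it had 0.338 and 0.753 RPKM under NX/NG and 2.27 and 0.332 RPKM after OGD-R (0.73 ± 0.96, and 1.95 without replicate 3). The collagenase Mmp13 had 1.25, 0.874 and 0.699 RPKM under NX/NG and 1.17, 2.23 and 2.93 RPKM after OGD-R in Cort+/+ BECs (1.03 ± 0.37; FDR 0.881). In Cort-/- BECs its values were 0.436 and 1.00 RPKM and then 2.05 and 0.908 RPKM (0.94 ± 0.58, and 1.49 without replicate 3). All 3 genes carry the AP-1 letters shown above within the 63 bases before their start, and a part of AP-1 factors in these values was not tested.

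The other 3 members with these letters were at low levels. Mmp12, the macrophage elastase, had a log2 fold change of 0.53 in Cort+/+ BECs (limma FDR 0.881), but at 0.0108 to 0.0882 RPKM over those 6 libraries and at most 9 reads in any library. Mmp1a had 0.291, 0.232 and 0.133 RPKM under NX/NG and 0.282, 0.218 and 0.0811 RPKM after OGD-R in Cort+/+ BECs. In Cort-/- BECs Mmp1a was lower after OGD-R, at 0.372 and 0.403 RPKM and then 0.248 and 0.177 RPKM (-0.65 ± 0.34; limma FDR 0.922). It had at most 10 reads in any library. Mmp1b had log2 fold changes of -0.43 ± 0.60 in Cort+/+ and 0.70 ± 0.52 in Cort-/- BECs. Of the AP-1 factors themselves, Fos had a log2 fold change of 0.94 ± 0.13 in Cort+/+ BECs (limma FDR 0.228) and 0.82 ± 0.22 in Cort-/- BECs (FDR 0.922), and Junb of 0.57 ± 0.13 (FDR 0.762) and 0.41 ± 0.12 (FDR 0.922). The 8 factors with a mean of at least 1 RPKM had a median of -0.01 and 0.02, and none was called.

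Timp1 was higher after OGD-R in both genotypes without overlap. It had 153, 127 and 123 RPKM under NX/NG and 171, 222 and 233 RPKM after OGD-R in Cort+/+ BECs (log2 fold change 0.63 ± 0.15; limma FDR 0.799), and 86.5 and 82.7 RPKM and then 120 and 174 RPKM in Cort-/- BECs (0.77 ± 0.21; limma FDR 0.922). Without Cort-/- OGD-R replicate 3 the latter was 0.50 ± 0.059 (limma FDR 0.458). Cort-/- OGD-R replicate 1 reached a level below all Cort+/+ NX/NG libraries, and replicate 3 one above them. Mmp28 (epilysin), with Timp1 the other member at a mean of at least 1 RPKM that lay above the NX/NG libraries without overlap in both genotypes, had 3.60, 4.14 and 3.56 RPKM and then 4.43, 5.46 and 5.87 RPKM in Cort+/+ BECs (0.46 ± 0.13; FDR 0.881), and 4.13 and 4.35 RPKM and then 6.65 and 5.14 RPKM in Cort-/- BECs (0.46 ± 0.16; FDR 0.922). 12.0% of its length lies in exons of 1700020L24Rik on the other strand. Timp2 did not follow Timp1, with log2 fold changes of -0.20 ± 0.15 and 0.12 ± 0.23.

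**Figure D4:**
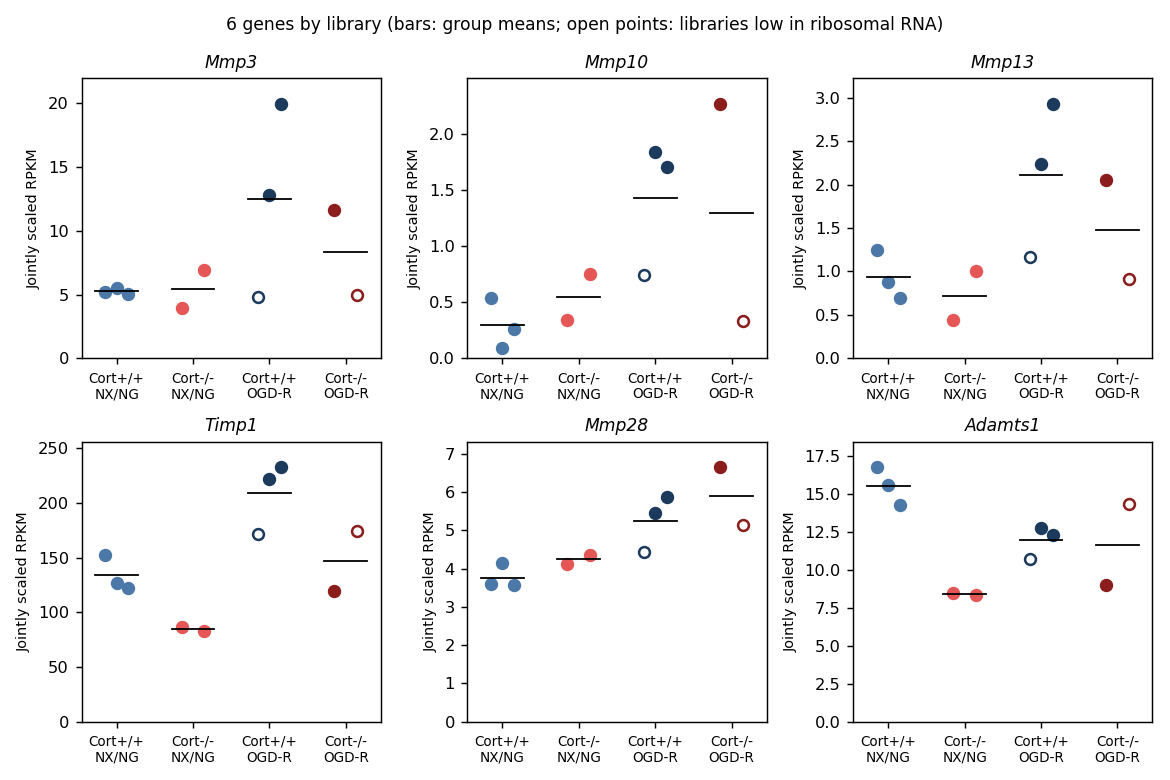
Jointly scaled RPKM of Mmp3, Mmp10, Mmp13, Timp1, Mmp28 and Adamts1 in each library by group; bars are group means, and open points are the 2 libraries low in ribosomal RNA. For Mmp3 the open points, at 4.85 and 4.99 RPKM, lie at the NX/NG level while the filled OGD-R points lie at 11.6 to 19.97 RPKM.

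In Cort-/- BECs more members had higher means after OGD-R. By limma and by limma-voom 0 of 47 were called (0.0% of all genes). At an unadjusted p under 0.05, 5 were higher (2.21% of all genes) and none was lower (1.87%). Of 27 members with a mean of at least 1 RPKM, 20 had positive log2 fold changes against 47.9% of all genes and 7 negative ones against 52.1%, with a median of 0.33 against -0.0091. 11 of the 27 lay above the NX/NG libraries without overlap (16.1%) and 2 below (18.1%). The NX/NG libraries are those in which these genes were lower than in Cort+/+ BECs, so the comparisons share samples and are not independent. Without replicate 3, the library low in ribosomal RNA, the median over the 27 was 0.13.

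Among the proteases, Mmp2 had 47.9 and 47.3 RPKM under NX/NG and 57.8 and 63.4 RPKM after OGD-R in Cort-/- BECs (log2 fold change 0.35 ± 0.093; limma FDR 0.922), against 77.2, 83.1 and 62.6 RPKM and then 77.4, 79.4 and 60.6 RPKM in Cort+/+ BECs (-0.04 ± 0.15, positive when scaled by total reads). Mmp14 had 25.7 and 26.0 RPKM and then 32.7 RPKM in both Cort-/- libraries (0.34 ± 0.074; limma FDR 0.843), against 0.16 ± 0.13 in Cort+/+ BECs. Adamts2 had 1.54 and 1.19 RPKM and then 2.04 and 2.40 RPKM (0.67 ± 0.22; limma FDR 0.922). The fibroblast markers moved as well: their 3 measurable members had a median log2 fold change of 1.13 in Cort-/- BECs, and the sum went from 64.8 and 95.9 RPKM to 165 and 209 RPKM as deposited. The pericyte sum went from 7.59 and 10.2 RPKM to 15.3 and 17.6 RPKM, with Pdgfrb at 0.70 ± 0.23 and Cspg4 at 1.93 ± 0.37 (limma FDR 0.922 and 0.754). Rgs5, the remaining measurable pericyte marker, had a log2 fold change of -0.08. The 4 smooth muscle markers were all negative, with a median of -0.53, and Myh11 and Cnn1 were lower without overlap. Tmem119, a microglial marker, had 1.31 ± 0.36 (FDR 0.922). The other 2 measurable macrophage and microglia markers, Cd68 and Csf1r, were lower without overlap, and the median of the 3 was -0.28. All 6 endothelial markers were negative, with a median of -0.17. The part of these markers was not tested.

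Whether the environment acted differently in the genotypes was tested as the interaction, which gives the log2 fold change in Cort-/- minus that in Cort+/+ BECs. limma called 0 of 49 members, against 3 of 27321 genes (0.0110%), and limma-voom called none (0.0%). At an unadjusted p under 0.05, 3 were positive (1.69% of all genes) and none negative (1.17%). These were Adamts1 (0.80 ± 0.25), Adamtsl4 (0.57 ± 0.20) and Adamtsl1 (0.94 ± 0.38), each with a limma FDR of 1.00. Adamts1 had 16.7, 15.6 and 14.2 RPKM under NX/NG and 10.7, 12.7 and 12.3 RPKM after OGD-R in Cort+/+ BECs, and 8.48 and 8.34 RPKM and then 8.98 and 14.3 RPKM in Cort-/- BECs. Of 29 members with a mean of at least 1 RPKM, 22 were positive (45.7% of all genes) and 7 negative (54.3%). Without both libraries low in ribosomal RNA the interaction of Adamts1 was 0.40 ± 0.13, that of Adamtsl4 0.36 ± 0.16 and that of Adamtsl1 0.92 ± 0.38 (limma FDR 0.994 each).

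**Figure D5:**
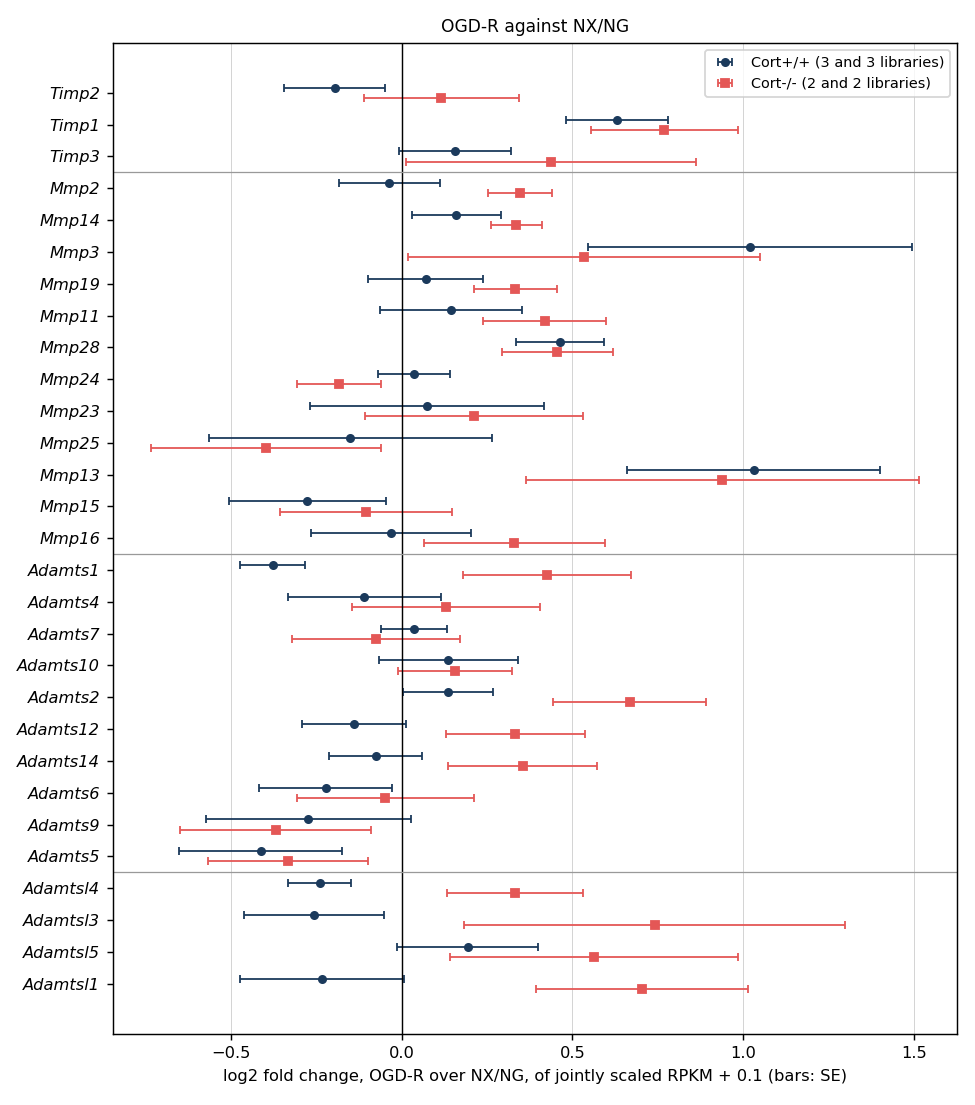
Log2 fold change of OGD-R over NX/NG (x axis, jointly scaled RPKM + 0.1, bars are SE) in Cort+/+ (circles) and Cort-/- BECs (squares) for members with a mean of at least 1 RPKM. Mmp3, Mmp13, Timp1 and Mmp28 lie right of 0 in both genotypes, Adamts1 and Adamtsl4 lie on opposite sides, and no value passed the FDR of 0.05.

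The proteins that switch these proteases on or clear them were mostly even between groups. Furin, the convertase that cuts the propeptide of Mmp14, had 18.2 to 22.7 RPKM over the 10 libraries. Reck, a membrane-anchored MMP inhibitor, had 4.88 to 7.18 RPKM, and Bsg, known as an inducer of MMPs, 165 to 225 RPKM. Of the 18 genes listed as activators and partners, 3 were lower and 1 was higher in Cort-/- BECs under NX/NG at an unadjusted p under 0.05 (4.82% and 3.56% of all genes), and none was called by limma. By limma-voom 4 were lower and 3 higher at that p (5.81% and 5.16% of all genes), and 2 were called (0.414%). Lrp1, the receptor that takes up MMPs and TIMPs, had 27.2 and 20.2 RPKM against 50.6, 50.5 and 36.6 RPKM (log2 fold change -0.95 ± 0.20; limma FDR 0.327). Serpine2, an inhibitor of thrombin and urokinase, had a log2 fold change of -0.55 ± 0.12 (FDR 0.346). After OGD-R, 0 of the 18 differed between genotypes by limma at that p, and limma-voom called 0 of them (0.0168% of all genes).

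Of the matrix proteins these enzymes cut, 17 of the 18 listed were tested, and 5 were lower and none higher in Cort-/- BECs under NX/NG at an unadjusted p under 0.05 (4.82% and 3.56% of all genes). By limma-voom 5 were lower and 5 higher at that p (5.81% and 5.16% of all genes). It called 3 of the 17, Fn1 among them, against 0.414% of all genes. The fibrillar collagens, which Adamts2 and Adamts14 process, were among the 5. Col1a1 had 67.5 and 46.5 RPKM against 155, 166 and 113 RPKM (log2 fold change -1.35 ± 0.24; limma FDR 0.253), Col1a2 had a log2 fold change of -1.41 ± 0.25 (FDR 0.253) and Col3a1 of -1.04 ± 0.26 (FDR 0.403). Vcan, the versican cut by Adamts1, had 5.33 and 3.86 RPKM against 9.00, 7.25 and 6.52 RPKM (-0.72 ± 0.20; FDR 0.439). Col1a1 and Col1a2 are also on the fibroblast list, and limma-voom called 2 of the 7 genes of that list. Fibronectin (Fn1) had 2593 and 2598 RPKM against 2042, 2131 and 2335 RPKM (0.26 ± 0.22; limma FDR 0.766, limma-voom FDR 0.0230), and the laminin chain Lama4 41.7 and 46.0 RPKM against 29.6, 28.9 and 41.0 RPKM (0.42 ± 0.17; limma FDR 0.626). The basement membrane collagens Col4a1 and Col4a2 had 580 and 578 against 504 to 565 RPKM, and 488 and 468 against 410 to 484 RPKM, in the opposite direction and, for Col4a1, without overlap. The median over the 14 measurable substrates was -0.0072.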

How the data were processed

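RNA of primary Cort+/+ and Cort-/- BECs was sequenced by the authors from stranded libraries, read as pairs. The deposited RPKM values per gene and library come from the authors' reanalyzerGSE pipeline (the submitters' processing notes name edgeR), in 2 tables scaled separately. The aligner, annotation and genome build are not given in the sources used here, and kit, RNA input and read length differ between the labels and the study's methods. Columns of the authors' own comparisons and 10 columns of expression categories were not used.

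RPKM times gene length gave whole reads (tolerance 0.05) for at least 99.9958% of values in every library, and within a table the authors' scaling equalled the trimmed mean of M values (TMM) computed from these reads. Precision is set by 12386048 to 12390428 reads per library, and depth leaves members at or under 3 reads undecided. For the environment and interaction comparisons the reads of 27321 genes were scaled over the 10 libraries by TMM. Fits used limma 3.58.1 in R 4.3.3 on log2(RPKM + 0.1), which understates changes of low genes, with a trend, two-sided, over all genes above 0 in the libraries fitted, and Benjamini-Hochberg adjustment. They were tested on simulated data. Tables and figures were made in Python 3.11.15.

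The members and gene lists were chosen with earlier results of these data known. Named are all TIMPs, Mmp2, Mmp9, Mmp3, Mmp10, members with a group mean of at least 5 RPKM, those with an unadjusted p under 0.05 in any comparison, and every other member by level; a few more were named after their values were seen. Alternatives were a pseudocount of 1, at least 1 RPKM in 2 libraries, scaling by total reads, a replicate block, all groups in one fit, limma-voom, a term for low ribosomal RNA, and each library left out. Leaving out both libraries low in ribosomal RNA was chosen after seeing the data. Promoters were taken from RefSeq (GRCm38.p6) and exon overlaps from GENCODE vM21; the strand setting of the counting is not given, so reads of overlapping genes on opposite strands may not be told apart. Nothing beyond the pooling of 3 mice and the labels' term of independent replicates says how replicates were separated.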

Additional observations from a re-analysis of the deposited data

Results flagged for a closer look

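Adamts1 and Adamtsl4 had environment effects of opposite sign in the genotypes, with no overlap between NX/NG and OGD-R libraries in either. For Adamts1 the log2 fold change of OGD-R over NX/NG was -0.38 in Cort+/+ and 0.43 in Cort-/- BECs, a difference of 0.80 (limma interaction FDR 1.00). For Adamtsl4 it was -0.24 and 0.33, a difference of 0.57 (limma interaction FDR 1.00). In Cort-/- BECs both effects rest mainly on OGD-R replicate 3, a library low in ribosomal RNA. Without it the log2 fold changes there were 0.093 and 0.083, and the part of that library's RNA composition was not tested.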

How the results depend on the processing

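For the 31 log2 fold changes of members at an unadjusted p under 0.05, all 369 values under alternatives held their sign; 361 kept their side of the FDR threshold and 8 passed it, 6 with limma-voom and 2 with Cort-/- NX/NG replicate 1 left out. Smaller differences did turn: with a library left out, Mmp3 under NX/NG ranged from -0.41 to 0.39, Timp3 after OGD-R from -0.91 to 0.28 and Timp2 for the environment in Cort-/- BECs from -0.09 to 0.32. Genes called under NX/NG went from 0 to 20 with a pseudocount of 1, 4 with all groups in one fit and 124 with limma-voom, and lay at 0 to 683 with a library left out; members called were 6 with limma-voom and 0 to 2 with a library left out, and members at an unadjusted p under 0.05 (15) lay at 9 (without Cort-/- replicate 2) to 19 with a library left out and at 21 with limma-voom. After OGD-R, genes called went from 0 to 7 with all groups in one fit, 5 with limma-voom and 0 to 710 with a library left out, and members at that p from 1 to 2 with a pseudocount of 1 or a term for low ribosomal RNA, 0 with total read scaling, 5 with all groups in one fit or without both libraries low in ribosomal RNA, 6 with limma-voom and 0 to 5 with a library left out (0 without Cort-/- replicate 1 or Cort+/+ replicate 2, 4 without Cort+/+ replicate 3, 5 without Cort-/- replicate 3). For the environment in Cort+/+ BECs, the 9 genes called became 5 with a pseudocount of 1, 1 with limma-voom, and 0 with a filter of 1 RPKM, all groups in one fit, a term for low ribosomal RNA or any library left out, and the 7 members at that p lay at 4 (without NX/NG or OGD-R replicate 2) to 7 with a library left out and at 10 with limma-voom. In Cort-/- BECs the 5 members lay at 0 to 8 with a library left out (1 and 0 without NX/NG replicate 1 and 2, 8 without OGD-R replicate 1) and at 7 with limma-voom. For the interaction, the 3 genes called became 0 with a pseudocount of 1, the filter, limma-voom, the ribosomal RNA term or without both libraries low in it, and 0 to 8 with a library left out (8 without Cort+/+ NX/NG replicate 2, 5 without Cort-/- OGD-R replicate 3, 6 without Cort+/+ OGD-R replicate 3, and 0 without either Cort-/- NX/NG library, Cort+/+ NX/NG replicate 3 or Cort+/+ OGD-R replicate 1 or 2), and the 3 members became 1 with total read scaling, 7 with limma-voom and 1 to 8 with a library left out (1 without Cort-/- NX/NG replicate 2, 5 without Cort+/+ NX/NG replicate 3, 8 without Cort-/- OGD-R replicate 1). The cause of these moves was not tested, beyond fewer libraries where some were left out.

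Same-numbered libraries of different groups did not deviate together (correlations of -0.39 to 0.13), and numbers were not taken to pair samples. Each Cort-/- group held 2 libraries, whose deviations mirror each other, so this check could not exclude a pairing. With a replicate block, genes called were 0 in every comparison where it could be fitted (environment in Cort+/+ BECs and interaction included), and the 1 member at an unadjusted p under 0.05 after OGD-R became 0. No block could be fitted for the environment in Cort-/- BECs, whose groups share only number 1.

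Scaling by total reads shifted the median of all genes by 0.027 to 0.091. It moved the share of higher values among all genes at an unadjusted p under 0.05 from 42.5% to 55.4% under NX/NG (1068 higher and 1445 lower, then 1187 and 957), from 54.9% to 68.7% for the environment in Cort+/+ (815 and 670, then 812 and 370) and from 54.1% to 64.1% in Cort-/- BECs (585 and 497, then 728 and 407). The signs of Mmp3 (NX/NG), Mmp2 and Mmp16 (environment, Cort+/+), Adamts6 and Adamts7 (environment, Cort-/-) and Mmp28 (interaction) turned. Depth limits members under 1 RPKM, where a few reads set a value.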

Other observations

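Timp2 took a smaller share of the RPKM summed over all members after OGD-R in both genotypes. Its share was 55.5% to 58.7% in the 5 NX/NG libraries and 44.0% to 52.1% in the 5 OGD-R libraries, with no overlap. A share within a library does not depend on how libraries are scaled against each other. It was noticed in the data and not tested, and Timp1 takes part in the same sum.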
